A study of Mus musculus with 12 samples.

Results

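The genes described here are 51 subunits of ATP-dependent chromatin remodelers, chosen by gene symbol from the 57180 genes in the deposited annotation table. They comprise 24 genes of BAF (SWI/SNF) complexes, 7 of ISWI complexes, 15 of CHD remodelers and NuRD, 3 catalytic subunits of the INO80/SRCAP family and 2 further SNF2-type remodelers, Atrx and Hells. Of the 51, 50 reached 10 counts over all libraries and were tested. The exception was Actl6b, the neuronal actin-like BAF subunit, with at most 2 counts in any library.

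The study asked how repression of a pyruvate-malate cycle affects the exit of mouse embryonic stem cells (ESCs) from naive pluripotency. Bulk RNA was sequenced from 12 libraries in 4 groups of 3: Neg ESCs, 3xKD ESCs, Neg EpiLCs and 3xKD EpiLCs. EpiLCs are epiblast-like cells, collected on day 2 of induction, and model the formative epiblast. All groups derive from male E14 ESCs in which a doxycycline-inducible dCas9-based repressor was placed at the Tigre locus, and from a single selected line, E14-dox-CRISPRi. Neg cells carry scramble guide RNAs and 3xKD cells carry guides against the start sites of Pcx (pyruvate carboxylase), Me1 and Me2 (malic enzymes), each inserted by piggyBac. The control line therefore holds the same repressor, and per the study's description both lines were treated with doxycycline. ESCs were kept in N2B27 with 2iLIF and EpiLCs in FAX medium (Activin A, Fgf2 and the Wnt inhibitor XAV939) on fibronectin. Each guide set is represented by 1 cell line, so an effect of the guides and a difference between the lines cannot be told apart. The lines differed beyond the targeted genes: the median log2 difference of 3xKD against Neg was 0.298 in ESCs and 0.300 in EpiLCs over 454 genes of chromosome 16, which holds no member, and -2.59 in both states over 13 genes of chromosome Y, while the medians of the other autosomes lay between -0.05 and 0.06. Their part in the 3xKD values below was not tested. The study's methods describe experiments as biological triplicates, while the labels give replicate numbers only, so p-values measure the spread between the 3 libraries of each line.

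Chromatin remodelers use ATP to slide, evict or exchange nucleosomes. BAF complexes open enhancers and promoters and are assembled from paralogs that differ between cell types, and the ESC form is known for Smarca4, Smarcc1, Smarcd1 and Arid1a. NuRD joins a CHD ATPase to histone deacetylases and is known for its part in silencing naive genes as ESCs leave naive pluripotency. ISWI enzymes space nucleosomes, and the INO80, SRCAP and EP400 complexes exchange histone variants.

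Libraries held between 11221023 and 19652197 estimated counts. Values per library are CPM, that is, counts scaled to a common library size with TMM factors, and adjusted p is the Benjamini-Hochberg value of edgeR's quasi-likelihood test over 25446 genes. A gene was called at an adjusted p under 0.01 with an absolute log2 fold change above 0.58. Pcx, Me1 and Me2 were lower in 3xKD cells, by log2 -1.14, -0.89 and -0.95 in ESCs and -1.05, -1.05 and -0.98 in EpiLCs. Summed CPM of 11 naive markers lay at 5652 to 5827 in Neg ESCs, 4276 to 4346 in 3xKD ESCs, 500.0 to 519 in Neg EpiLCs and 593 to 614 in 3xKD EpiLCs. Summed CPM of 8 formative and primed markers lay at 441 to 453, 413 to 429.9, 3719 to 4119 and 2173 to 2228 in the same order. Of 6 fibroblast markers 4 reached the count limit, and these 4 summed to at most 3.103 CPM in any library. Markers of 2-cell-like cells summed to 763 to 821 in 3xKD EpiLCs and to at most 421 in the other groups. These markers moved with the groups compared below, and their part in the remodeler values was not tested. In bulk RNA, fewer cells of a type and less RNA per cell cannot be told apart.

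The first comparison asked how the remodelers changed from ESCs to EpiLCs. In Neg cells 12 of 50 rose and 3 fell, against 20.8% of all genes called in either direction (9.78% higher and 11% lower), and against 30.7% of the 15032 genes that averaged 1 CPM or more. At an adjusted p under 0.01 with no fold limit, 28 were higher and 14 lower, against 35.7% of all genes in either direction. Among the 15032 genes with at least 1 CPM, 4051 were higher and 4346 lower by that rule. The median over members was log2 0.20, and 0.01 over all genes tested. CHD and NuRD genes had the highest median, 0.51, with 5 of 15 risen and none fallen. BAF genes had a median of -0.08, with 3 of 23 risen and 2 fallen. ISWI genes split into 2 risen and 1 fallen of 7. Ino80 and Hells rose as well. In 3xKD cells 8 members rose and 2 fell from ESCs to EpiLCs, against 18.7% of all genes (9.42% higher and 9.32% lower), with a median of 0.11. With no fold limit 21 were higher and 17 lower, against 33.8%. Of the 15032 genes with at least 1 CPM, 3702 were higher and 4327 lower. The median was 0.22 for CHD and NuRD genes, -0.13 for BAF and -0.12 for ISWI. Member transcripts were long, with a median length of 3081 bases against 1910 for genes of at least 1 CPM, and over those of these genes with the longest transcripts the median change in Neg cells was 0.07, against 0.29 for the 26 members among them.

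**Figure D1:**
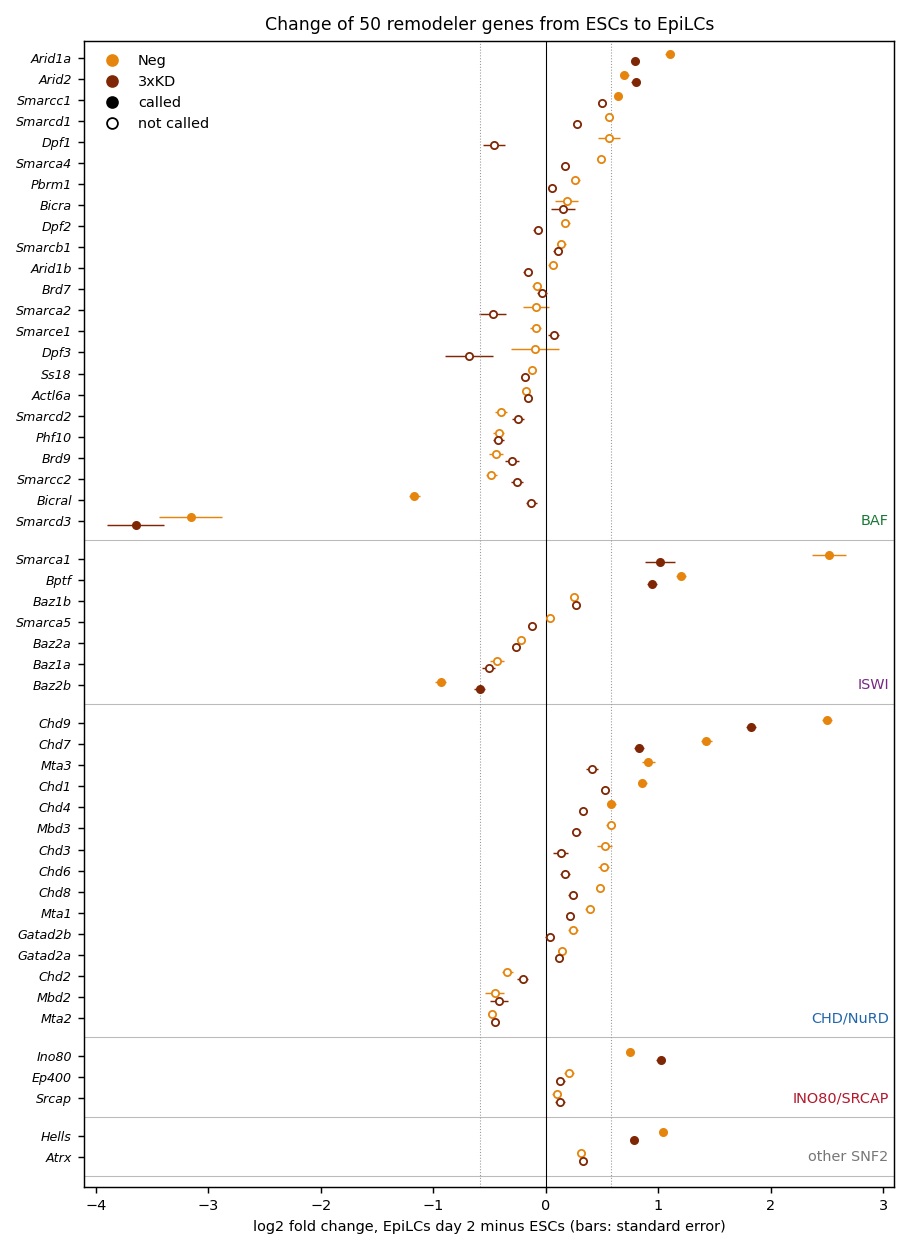
The log2 fold change from ESCs to EpiLCs is plotted for each of the 50 tested genes in Neg cells (orange) and 3xKD cells (brown), with horizontal bars for the standard error, filled points for called genes and dotted lines at the fold limit of 0.58. Chd9 and Smarca1 lie farthest to the right and Smarcd3 farthest to the left, and most CHD/NuRD points in Neg cells lie right of 0.

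Per length, levels of the tested members in Neg ESCs ran from 0.697 ± 0.44 TPM (a level scaled for transcript length and library total, mean ± SD, n = 3) for Smarca1 to 116 ± 17.5 TPM for Dpf2, the common BAF subunit that reads histone marks. Actl6a, the actin-like BAF subunit of dividing cells, stood at 80.9 ± 6.66 TPM, the NuRD zinc-finger subunit Gatad2a at 78.7 ± 16.6 TPM, Chd4 at 74.8 ± 14.3 TPM and the ISWI ATPase Smarca5 at 73.8 ± 5.40 TPM, and these 4 do not differ beyond their spread. In Neg EpiLCs the highest were Hells at 169 ± 9.11 TPM, Dpf2 at 166 ± 15.5 TPM, Chd4 at 131 ± 7.02 TPM and Smarcc1 at 117 ± 6.92 TPM, of which Hells and Dpf2 lie within their spread. At the low end in both states were Smarca2, the alternative BAF ATPase, with 1.98 ± 0.208 and 2.01 ± 0.668 TPM, and the Dpf paralog Dpf3 with 1.53 ± 0.159 and 2.01 ± 0.213 TPM.

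Among BAF genes, Arid1a, the DNA-binding subunit that defines canonical BAF (ENSMUSG00000007880, chromosome 4, 133406304 to 133484080 on the minus strand), measured 454, 472 and 451 CPM in Neg ESCs, 364, 357 and 364 in 3xKD ESCs, 989.8, 960.2 and 1006 in Neg EpiLCs and 649, 637 and 594 in 3xKD EpiLCs. The 4 groups did not overlap, with the lowest values in 3xKD ESCs and the highest in Neg EpiLCs. Arid1a rose by log2 1.101 (SE 0.04, adjusted p = 1.94e-13) in Neg cells and 0.79 (SE 0.04, adjusted p = 2.04e-11) in 3xKD cells. Arid2, which defines the PBAF form with Pbrm1, measured 144, 155 and 146 CPM in Neg ESCs, 120.3, 123 and 124 in 3xKD ESCs, 246, 237 and 238 in Neg EpiLCs and 223, 212 and 203 in 3xKD EpiLCs. Every EpiLC library lay above every ESC library. Arid2 rose by 0.70 (SE 0.04, adjusted p = 1.92e-10) in Neg and 0.80 (SE 0.04, adjusted p = 4.93e-11) in 3xKD cells. With offsets for transcript length the latter was 0.57, under the fold limit (adjusted p = 6.11e-06). Smarcc1, a core scaffold subunit of ESC BAF, measured 282, 282 and 274 CPM in Neg ESCs, 289, 278 and 289 in 3xKD ESCs, 439, 424 and 447 in Neg EpiLCs and 415, 393 and 401 in 3xKD EpiLCs. EpiLC libraries again lay above all ESC libraries, while the ESC groups overlapped. Its change was called in Neg cells at 0.65 (SE 0.03, adjusted p = 6.25e-11) and stayed under the fold limit in 3xKD cells at 0.50 (SE 0.03, adjusted p = 2.18e-09).

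Bicral, a subunit specific to non-canonical BAF (ENSMUSG00000036568, chromosome 17, 47109046 to 47169408 on the minus strand), measured 92.5, 99.2 and 93.9 CPM in Neg ESCs, 55.1, 53.1 and 53.0 in 3xKD ESCs, 40.6, 42.8 and 43.9 in Neg EpiLCs and 49.5, 51.02 and 47.3 in 3xKD EpiLCs. Every Neg ESC library stood above the other 3 groups, which lay between 40.6 and 55.1 CPM. Bicral fell by 1.17 on the log2 scale in Neg cells (SE 0.05, adjusted p = 1.87e-12), and its change in 3xKD cells was -0.13 (SE 0.05, adjusted p = 0.0383). Its paralog Bicra measured 22.2 ± 0.622 CPM (SD, n = 3) in Neg ESCs and 25.2 ± 2.68 CPM in Neg EpiLCs, a change of 0.19 (SE 0.10, adjusted p = 0.158) that was not called. Smarcd3, the Smarcd paralog known from heart and muscle (ENSMUSG00000028949, chromosome 5, 24795816 to 24829409 on the minus strand), measured 4.96, 3.58 and 4.23 CPM in Neg ESCs, 8.29, 8.29 and 7.25 in 3xKD ESCs, 0.616, 0.336 and 0.442 in Neg EpiLCs and 0.869, 0.703 and 0.312 in 3xKD EpiLCs. Counts were low in every EpiLC library. Smarcd3 fell by 3.16 in Neg cells (SE 0.28, adjusted p = 6.05e-08) and by 3.65 in 3xKD cells (SE 0.25, adjusted p = 3.4e-09) on the log2 scale.

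The remaining 18 BAF genes tested were not called in either cell line between states. Smarca4, the main ATPase, measured 243 ± 5.47 CPM in Neg ESCs and 341 ± 3.84 CPM in Neg EpiLCs, a difference of 0.49 (SE 0.03, adjusted p = 9.55e-10). Smarcd1 differed by 0.56 (SE 0.03, adjusted p = 4.33e-10) in the same cells. Both differences were larger than the spread between libraries but under the fold limit. Smarcc2, the counterpart of Smarcc1, lay on the other side of 0 at -0.48 (SE 0.05, adjusted p = 4.36e-07). Smarcb1, Arid1b, Brd7, Smarce1 and Ss18 lay within 0.15 of 0 in Neg cells. Brd9 and Phf10 were lower by similar sizes in both lines without reaching the fold limit, at -0.44 and -0.42 in Neg and -0.30 and -0.42 in 3xKD cells. The neural and muscle-type subunit Dpf3 was at -0.10 (SE 0.21, adjusted p = 0.766) in Neg and -0.68 (SE 0.21, adjusted p = 0.016) in 3xKD cells, and Smarca2 at -0.08 and -0.47. Dpf1, a neuronal PHD-finger subunit, was at 0.56 in Neg cells and -0.46 in 3xKD cells, and its libraries are given with the knockdown below.

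Of the ISWI genes, Smarca1, the catalytic subunit also called Snf2l (ENSMUSG00000031099, chromosome X, 46898245 to 46981880 on the minus strand), measured 2.22, 2.62 and 2.45 CPM in Neg ESCs, 4.67, 6.95 and 5.88 in 3xKD ESCs, 12.7, 15.8 and 13.7 in Neg EpiLCs and 10.9, 12.6 and 12.1 in 3xKD EpiLCs. Neg ESCs were lowest and 3xKD ESCs next, both below all EpiLC libraries, and the EpiLC groups came close to each other without overlap. Smarca1 rose by 2.52 (SE 0.15, adjusted p = 4.17e-10) in Neg cells and by 1.02 (SE 0.13, adjusted p = 8.08e-06) in 3xKD cells. With offsets for transcript length the second value was 0.47 (adjusted p = 0.35), and the cause of this was not tested. The other catalytic subunit, Smarca5, was far more abundant at 73.8 ± 5.40 TPM in Neg ESCs against 0.697 ± 0.44 TPM for Smarca1. The difference of Smarca5 in Neg cells was 0.04 (SE 0.03, adjusted p = 0.413), not past the test. The 200 bases before the start of the Smarca1 transcript with the most estimated counts are shown. Smarca1 was chosen as, with Chd9, one of the 2 members with the largest rise in Neg cells. This stretch lies inside the annotated gene, downstream of its outermost annotated start (chrX:46981442-46981641, minus strand, 9 CG in GRCm39, CG in capitals).
Smarca1: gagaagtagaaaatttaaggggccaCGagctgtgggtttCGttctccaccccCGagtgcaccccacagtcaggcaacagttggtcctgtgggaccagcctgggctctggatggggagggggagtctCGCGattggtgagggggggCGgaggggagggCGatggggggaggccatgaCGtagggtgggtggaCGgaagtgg

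In that Smarca1 stretch CCAAT and GGGCGG were each found once when both strands were read. Over the corresponding windows of all 25364 genes, the 200 bases before the start of each gene's most counted transcript, CCAAT was found in 30.4% and GGGCGG in 34.7%, against 32% and 58% of the 50 members. CACGTG was found in 4% of members and 5.47% of all windows. Both strands were searched for each run, no run contains another, and some windows, such as that of Bicral, lie within exons of other transcripts. Member windows held a median of 13.5 CG against 7 over all genes. These shares describe letters in the windows and were not tested.

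Bptf, the large subunit of the NURF complex that reads histone marks, measured 278, 286 and 271 CPM in Neg ESCs, 235, 213 and 227 in 3xKD ESCs, 648, 620.4 and 655 in Neg EpiLCs and 457, 418 and 428 in 3xKD EpiLCs. The 4 groups did not overlap, with both EpiLC groups above the ESCs. Bptf rose by 1.21 (SE 0.04, adjusted p = 4.19e-13) in Neg and 0.95 (SE 0.04, adjusted p = 1.48e-11) in 3xKD cells. Baz2b, a bromodomain partner of ISWI enzymes, went the other way, with 63.4, 63.9 and 60.9 CPM in Neg ESCs, 51.7, 50.3 and 52.7 in 3xKD ESCs, 30.9, 34.4 and 33.1 in Neg EpiLCs and 34.3, 33.8 and 35.0 in 3xKD EpiLCs. All EpiLC libraries lay below all ESC libraries. Baz2b fell by 0.93 on the log2 scale in Neg cells (SE 0.05, adjusted p = 6.92e-11) and by 0.58 in 3xKD cells (SE 0.05, adjusted p = 3.46e-08), the latter at the fold limit and kept in 7 of 18 alternative settings. Baz1a (ACF), Baz1b (WICH) and Baz2a (NoRC) were not called, at -0.43, 0.25 and -0.22 in Neg cells.

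In the CHD group, Chd9, a CHD ATPase of the Chd6 to Chd9 subfamily (ENSMUSG00000056608, chromosome 8, 91554934 to 91781527 on the plus strand), had a rise close in size to that of Smarca1, with 98.4, 105 and 100.5 CPM in Neg ESCs, 107, 104 and 115 in 3xKD ESCs, 571, 563 and 587 in Neg EpiLCs and 405, 379.6 and 367 in 3xKD EpiLCs. Every EpiLC library was more than 3 times every ESC library, and the Neg and 3xKD EpiLCs did not overlap. Chd9 rose 5.66-fold in Neg cells, log2 2.50 (SE 0.05, adjusted p = 9.11e-17), and 3.54-fold in 3xKD cells, 1.82 (SE 0.04, adjusted p = 6.21e-15). Chd7, an enhancer-bound CHD ATPase mutated in CHARGE syndrome (ENSMUSG00000041235, chromosome 4, 8690406 to 8868738 on the plus strand), measured 124, 133 and 116 CPM in Neg ESCs, 139.7, 137 and 141 in 3xKD ESCs, 329.9, 326 and 347 in Neg EpiLCs and 259, 246 and 236 in 3xKD EpiLCs. The EpiLC groups lay above the ESC groups and did not overlap each other. Chd7 rose by 1.43 (SE 0.05, adjusted p = 1.94e-13) and 0.83 (SE 0.05, adjusted p = 2.67e-10). The stretches before the most counted start of both genes are printed because these subfamily members rose together and differ in base composition, with chr8:91554734-91554933, plus strand, 5 CG for Chd9 and chr4:8691104-8691303, plus strand, 32 CG for Chd7, CG in capitals.
Chd9: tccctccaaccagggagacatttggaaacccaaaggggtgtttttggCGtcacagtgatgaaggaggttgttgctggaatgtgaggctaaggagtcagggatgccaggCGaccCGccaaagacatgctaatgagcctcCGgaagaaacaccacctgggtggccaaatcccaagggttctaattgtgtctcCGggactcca
Chd7: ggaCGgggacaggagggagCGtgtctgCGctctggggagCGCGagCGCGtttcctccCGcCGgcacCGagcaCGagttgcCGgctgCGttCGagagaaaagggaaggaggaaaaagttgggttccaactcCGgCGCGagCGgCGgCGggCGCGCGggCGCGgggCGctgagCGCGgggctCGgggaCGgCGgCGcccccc

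The Chd9 window lies directly before the annotated gene, while the Chd7 window lies inside its gene, downstream of the outermost annotated start. Neither window held any of these letter runs. Chd1, an ATPase tied to active transcription in ESCs, measured 203, 203 and 193 CPM in Neg ESCs, 184, 186 and 193 in 3xKD ESCs, 373, 340.1 and 372 in Neg EpiLCs and 274, 268 and 268 in 3xKD EpiLCs. Its EpiLC libraries lay above all ESC libraries. Chd1 rose by 0.86 (SE 0.04, adjusted p = 9.14e-12) in Neg cells and differed by 0.53 (SE 0.04, adjusted p = 7.26e-09), under the fold limit, in 3xKD cells. Chd4, the main ATPase of NuRD, measured 689, 687 and 633 CPM in Neg ESCs, 689.7, 680.2 and 679 in 3xKD ESCs, 1018, 968 and 1022 in Neg EpiLCs and 893, 841 and 845 in 3xKD EpiLCs. The ESC groups overlapped and the EpiLC groups did not. Its change was at the fold limit in Neg cells, 0.58 (SE 0.04, adjusted p = 1.85e-09), a call kept in 14 of 18 alternative settings, and was 0.33 (SE 0.04, adjusted p = 2.26e-06) in 3xKD cells. Mta3, one of the MTA subunits of NuRD, measured 50.4, 52.8 and 44.2 CPM in Neg ESCs, 74.2, 73.2 and 76.5 in 3xKD ESCs, 92.3, 88.5 and 95.0 in Neg EpiLCs and 96.1, 97.0 and 105 in 3xKD EpiLCs. Its lowest group was Neg ESCs. Mta3 rose by 0.91 (SE 0.06, adjusted p = 9.66e-10) in Neg cells and was at 0.41 (SE 0.06, adjusted p = 1.14e-05) in 3xKD cells.

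The other 10 CHD and NuRD genes were not called between states in either line. Mbd3, the NuRD scaffold required for ESC lineage commitment, came closest at 0.58 (SE 0.04, adjusted p = 2.41e-09) in Neg cells, with 75.7 ± 2.92 CPM in ESCs and 113 ± 4.04 CPM in EpiLCs. Chd3, Chd6, Chd8 and Mta1 lay between 0.39 and 0.53. Mta2, Mbd2 and Chd2 lay below 0, at -0.48, -0.45 and -0.34, each past the adjusted p limit. Ino80, the ATPase of the INO80 complex, measured 95.7, 106 and 102 CPM in Neg ESCs, 75.9, 76.8 and 76.4 in 3xKD ESCs, 168, 175 and 170.2 in Neg EpiLCs and 154, 156 and 155 in 3xKD EpiLCs. No groups overlapped. Ino80 rose by 0.75 (SE 0.04, adjusted p = 3.33e-11) in Neg and 1.02 (SE 0.04, adjusted p = 1.08e-12) in 3xKD cells, while the related ATPases Srcap and Ep400 were at 0.10 and 0.21 in Neg cells and not called. Hells, a remodeler needed for DNA methylation of repeats, measured 254, 245 and 245 CPM in Neg ESCs, 209, 205 and 209 in 3xKD ESCs, 522, 488 and 519.9 in Neg EpiLCs and 355, 351 and 368 in 3xKD EpiLCs. All 4 groups were apart. Hells rose by 1.04 (SE 0.03, adjusted p = 1.92e-13) and 0.79 (SE 0.03, adjusted p = 1.12e-11), and Atrx, which loads a histone variant at repeats, was at 0.32 and 0.33.

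**Figure D2:**
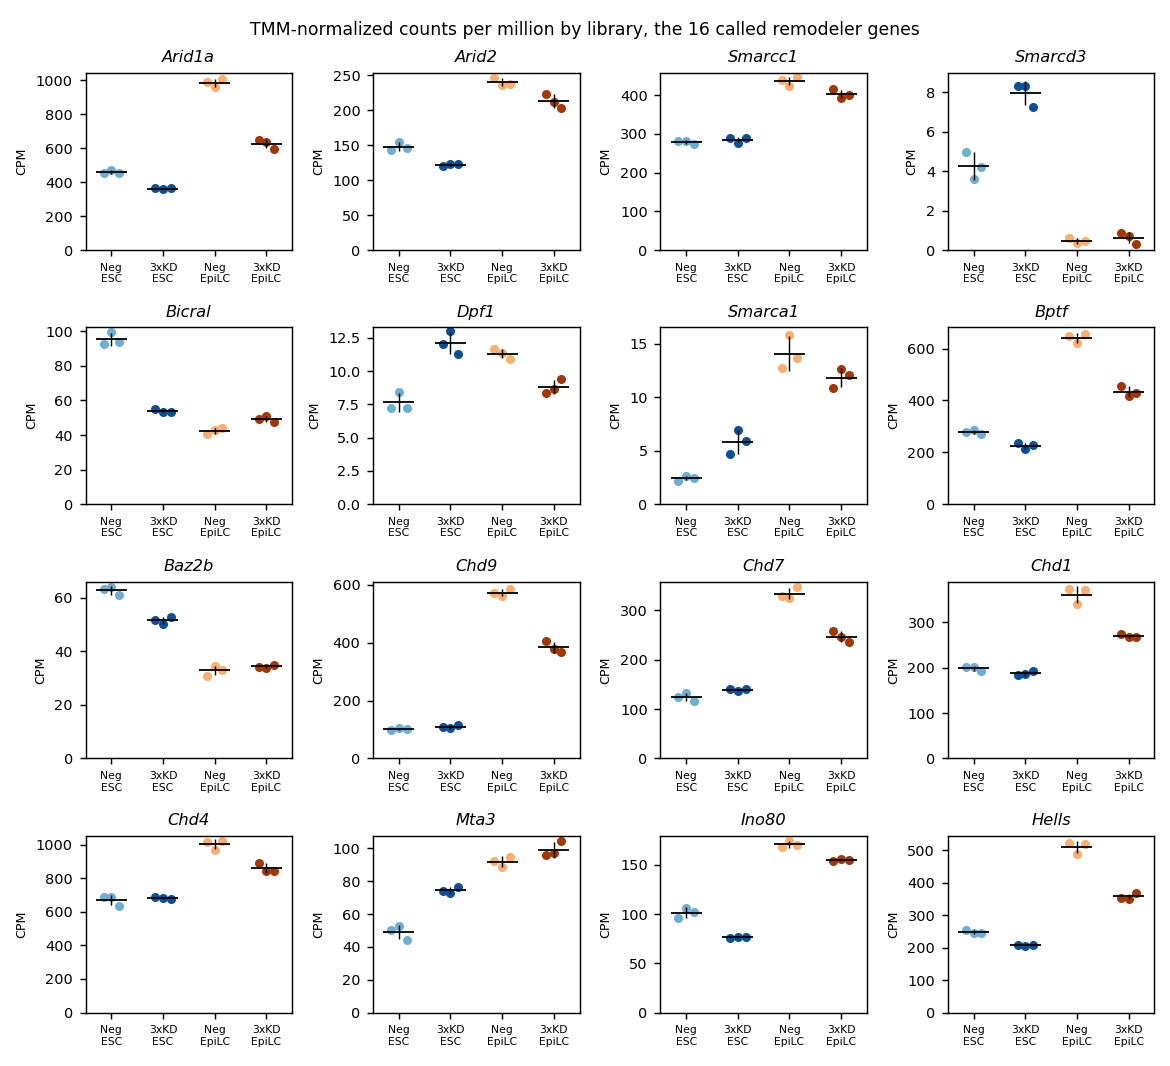
TMM-normalized CPM are plotted on axes from 0 for the 16 genes called in any of the 4 pairwise comparisons, 1 point per library, with the horizontal line at the group mean and the vertical bar for the SD of 3 libraries. Chd9 climbs from about 100 CPM in both ESC groups to over 360 CPM in all EpiLC libraries, and Bicral is high in Neg ESCs alone.

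The next comparisons asked how the triple knockdown affected the remodelers in each state. In ESCs 4 members rose and 1 fell in 3xKD against Neg cells, a total of 5 of 50 against 15.3% of all genes (8.5% higher and 6.78% lower), and 23.6% of genes with at least 1 CPM. The 5 were Smarca1, Smarcd3, Dpf1, Mta3 and Bicral. The member median was -0.05, and 0.03 over all genes. In EpiLCs Arid1a alone was called, lower in 3xKD cells, 1 of 50 against 13.2% of all genes (7.88% higher and 5.35% lower), and 20.8% of genes with at least 1 CPM (8.57% lower). With no limit on fold, however, 32 members were past an adjusted p of 0.01 in EpiLCs, 5 higher and 27 lower, against 29.9% of all genes. Among the 15032 genes with at least 1 CPM, 3488 were higher and 3887 lower. In ESCs 12 members were higher and 20 lower by that rule, against 31.6% of all genes. Among the genes with at least 1 CPM, 3780 were higher and 3928 lower in ESCs. Of the 50 members 37 lay below 0 in EpiLCs, with a median of -0.20, against 0.03 over all genes. The comparisons in ESCs and EpiLCs share no libraries, but both set the same 3xKD line against the same Neg line.

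In ESCs, Smarca1 was higher by 1.26 (SE 0.16, adjusted p = 7.48e-06), with 3xKD libraries at 4.67, 6.95 and 5.88 CPM against 2.22, 2.62 and 2.45 CPM. Bicral was lower in all 3 of the 3xKD libraries and fell by 0.83 on the log2 scale (SE 0.05, adjusted p = 4.27e-10). Mta3 rose by 0.61 (SE 0.06, adjusted p = 2.76e-07) without overlap between groups. Smarcd3 rose by 0.91 (SE 0.20, adjusted p = 0.00125). Dpf1 measured 7.27, 8.47 and 7.24 CPM in Neg ESCs, 12.04, 13.0 and 11.3 in 3xKD ESCs, 11.6, 11.3 and 10.9 in Neg EpiLCs and 8.38, 8.63 and 9.43 in 3xKD EpiLCs. Its 3xKD ESCs lay above Neg ESCs and its 3xKD EpiLCs below Neg EpiLCs, with no overlap in either state. Dpf1 rose by 0.66 (SE 0.10, adjusted p = 3.02e-05) in ESCs and was at -0.36 (SE 0.10, adjusted p = 0.00621) in EpiLCs. Its estimated counts lie on transcripts of different length, and with offsets for that length the ESC value was 0.14 (adjusted p = 0.66) and the EpiLC value -1.07 (adjusted p = 0.00124), so that the call moved from one state to the other. In EpiLCs Arid1a fell by 0.65 on the log2 scale (SE 0.04, adjusted p = 5.36e-10), from 989.8, 960.2 and 1006 CPM to 649, 637 and 594 CPM. Chd9 was at -0.58 (SE 0.04, adjusted p = 1.18e-08) and Bptf at -0.56 (SE 0.04, adjusted p = 1.49e-08), both just short of the fold limit. Without 3xKD EpiLCs replicate 1 both were called, at -0.62 and -0.60, and without Neg EpiLCs replicate 2 Chd9 was called at -0.59, which makes 3 and 2 members in place of 1.

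The members called in neither state include several past the adjusted p limit. Srcap, the ATPase of the SRCAP complex, measured 397 ± 6.24 CPM in Neg ESCs, 282 ± 15.0 in 3xKD ESCs, 425 ± 13.7 in Neg EpiLCs and 309 ± 14.1 in 3xKD EpiLCs. Its differences were -0.49 (SE 0.04, adjusted p = 7.97e-08) in ESCs and -0.46 (SE 0.04, adjusted p = 1.7e-07) in EpiLCs. Baz1b was at -0.50 (SE 0.03, adjusted p = 6.53e-09) and -0.48 (SE 0.03, adjusted p = 9.89e-09). Ep400 was at -0.31 and -0.39, and Ino80 at -0.41 and -0.14, so the 3 INO80/SRCAP ATPases were all past the adjusted p limit on the lower side in both states without reaching the fold limit. On the higher side, Phf10, a PBAF subunit, was at 0.43 (SE 0.05, adjusted p = 1.4e-06) and 0.43 (SE 0.05, adjusted p = 2.39e-06), and Mta1 at 0.55 (SE 0.04, adjusted p = 5.49e-09) and 0.38 (SE 0.04, adjusted p = 3.81e-07). Mta2 was lower at -0.31 and -0.27. Smarca4 was at 0.33 (SE 0.03, adjusted p = 1.89e-07) in ESCs and 0.02 (SE 0.03, adjusted p = 0.7) in EpiLCs.

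**Figure D3:**
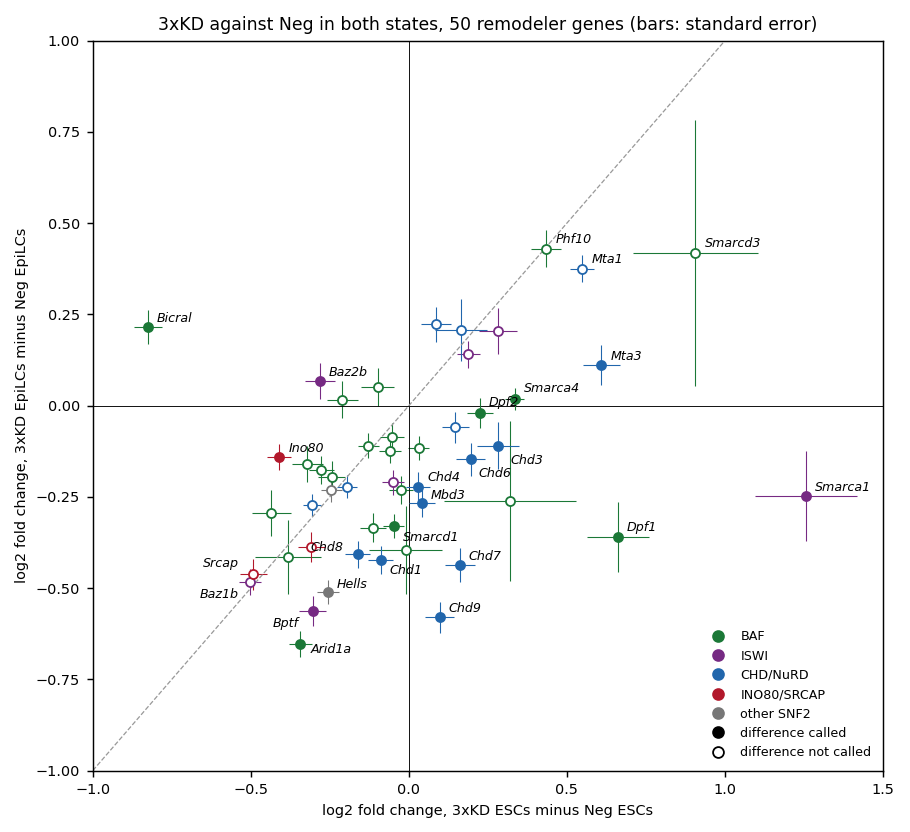
The log2 fold change of 3xKD against Neg is plotted for 50 genes, in ESCs on the horizontal axis and in EpiLCs on the vertical axis, colored by complex, with bars for standard errors, filled points where the difference between the states passed an adjusted p of 0.01 and a dashed line where both values are equal. All 9 filled points of the CHD/NuRD group lie below the line, while Bicral, Baz2b and Ino80 lie above it.

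The difference between the 3xKD effects in EpiLCs and in ESCs was tested as an interaction, called at an adjusted p under 0.01 with no limit on fold. Of 50 members 20 were called, 3 higher and 17 lower, against 10% of all genes (4.76% higher and 5.27% lower) and 16.8% of genes with at least 1 CPM (7.95% higher and 8.87% lower). The CHD and NuRD genes held 9 of these calls, all lower, and BAF genes 6, ISWI genes 3, Ino80 and Hells 1 each. A lower value means that the 3xKD libraries stood further below, or less far above, the Neg libraries in EpiLCs than in ESCs. Scaling by library size alone gave 3 higher and 8 lower, and offsets for transcript length 1 higher and 3 lower, namely Bicral above 0 and Arid1a, Smarca4 and Mta3 below it. The offsets also cut the calls over all genes, from 1211 higher and 1340 lower to 337 higher and 394 lower. In the fit without offsets, 22.6% of genes with at least 1 CPM and transcripts over 3037 bases were called, 12.8% lower. Of the members, 26 were among these genes.

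Smarca1 differed most, by -1.50 (SE 0.20, adjusted p = 6.53e-05), with 3xKD libraries above Neg in ESCs and just below it in EpiLCs. Dpf1 differed by -1.02 (SE 0.14, adjusted p = 5.4e-05). Chd9 differed by -0.68 (SE 0.06, adjusted p = 1.19e-06) and Chd7 by -0.60 (SE 0.07, adjusted p = 8.45e-06). For Chd9 the ESC groups overlapped, at 98.4, 105 and 100.5 CPM in Neg and 107, 104 and 115 CPM in 3xKD libraries, and the EpiLC groups did not. Mta3 differed by -0.50 (SE 0.08, adjusted p = 0.000329), with its 3xKD libraries above Neg in both states. Chd1, Chd3, Chd4, Chd6, Chd8 and Mbd3 lay between -0.39 and -0.25. In the other direction Bicral differed by 1.04 (SE 0.07, adjusted p = 1.67e-08), where the 3xKD libraries lay below Neg in ESCs and above it in EpiLCs. Baz2b followed at 0.35 (SE 0.07, adjusted p = 0.00178) and Ino80 at 0.27 (SE 0.05, adjusted p = 0.00169).

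Since BAF and NuRD are built from alternative paralogs, the share of each gene in the summed TPM of its paralogs was compared between groups, over 26 shares. Groups did not overlap for 19 shares between ESCs and EpiLCs in Neg cells and for 19 in 3xKD cells, for 11 between 3xKD and Neg ESCs and for 8 between 3xKD and Neg EpiLCs. For CPM of single genes, groups did not overlap in 51.7%, 51.7%, 49% and 47.2% of all genes tested. That is a different measure from a share of TPM. No background was counted for paralog shares outside the members, so these counts cannot be read as more or fewer than usual. With 3 libraries against 3 the exact two-sided permutation p cannot go below 0.1, so no share could pass 0.05, and shares within a pair or trio are not independent.

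In Neg cells Arid1a made up 74.0 ± 0.886% (SD, n = 3) of Arid1a and Arid1b in ESCs and 86.0 ± 0.242% in EpiLCs. In 3xKD cells the share was 71.7 ± 0.565% and 83.1 ± 0.105%. None of the 4 groups overlapped. Smarcc1 made up 83.5 ± 2.40% and 93.3 ± 0.0733% of Smarcc1 and Smarcc2 in Neg ESCs and EpiLCs. Smarcd1 made up 61.0 ± 1.89% and 74.2 ± 3.497% of the Smarcd trio, and Smarcd3 3.16 ± 0.577% and 0.309 ± 0.0978%. In every one of these sets, the paralog named for ESC BAF held the larger share in both states, and more of it in EpiLCs. Bicra held 16 ± 0.744% of Bicra and Bicral in Neg ESCs and 35.2 ± 7.03% in Neg EpiLCs. In 3xKD cells it held 25.0 ± 3.144% and 25.3 ± 4.88%, and these overlapped.

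Among NuRD subunits the MTA trio shifted in both comparisons. Mta2 held 48.9 ± 1.97% in Neg ESCs, 30.4 ± 0.499% in Neg EpiLCs, 34.0 ± 0.459% in 3xKD ESCs and 23.5 ± 0.534% in 3xKD EpiLCs, with no overlap among the 4 groups. Mta3 held 22.9 ± 0.921% in Neg ESCs, 37.1 ± 1.15% in Neg EpiLCs and 29.8 ± 0.461% in 3xKD ESCs. Mta2 was thus the most abundant MTA transcript per length in Neg ESCs and the least abundant in both EpiLC groups. Mbd3 held 77.0 ± 1.08% of Mbd2 and Mbd3 in Neg ESCs and 87.7 ± 3.21% in Neg EpiLCs. In the Chd6 to Chd9 set, Chd9 held 12.8 ± 2.54% in Neg ESCs and 40.1 ± 7.86% in Neg EpiLCs, and Chd8 52.4 ± 6.78% and 30.1 ± 4.31%. The spread for Chd9 in EpiLCs comes with 1 short transcript, Chd9-208, to which 26.2% to 66.4% of the gene's TPM was assigned in 3 of the 6 EpiLC libraries and none in the others. By estimated counts Chd9 held 18.5 ± 0.271% and 42.2 ± 0.115%. Baz1a held 26.9 ± 5.09% of Baz1a and Baz1b in Neg ESCs and 38.8 ± 0.602% in 3xKD ESCs, and Smarca5 at least 93.9% of the ISWI ATPases in every library.

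**Figure D4:**
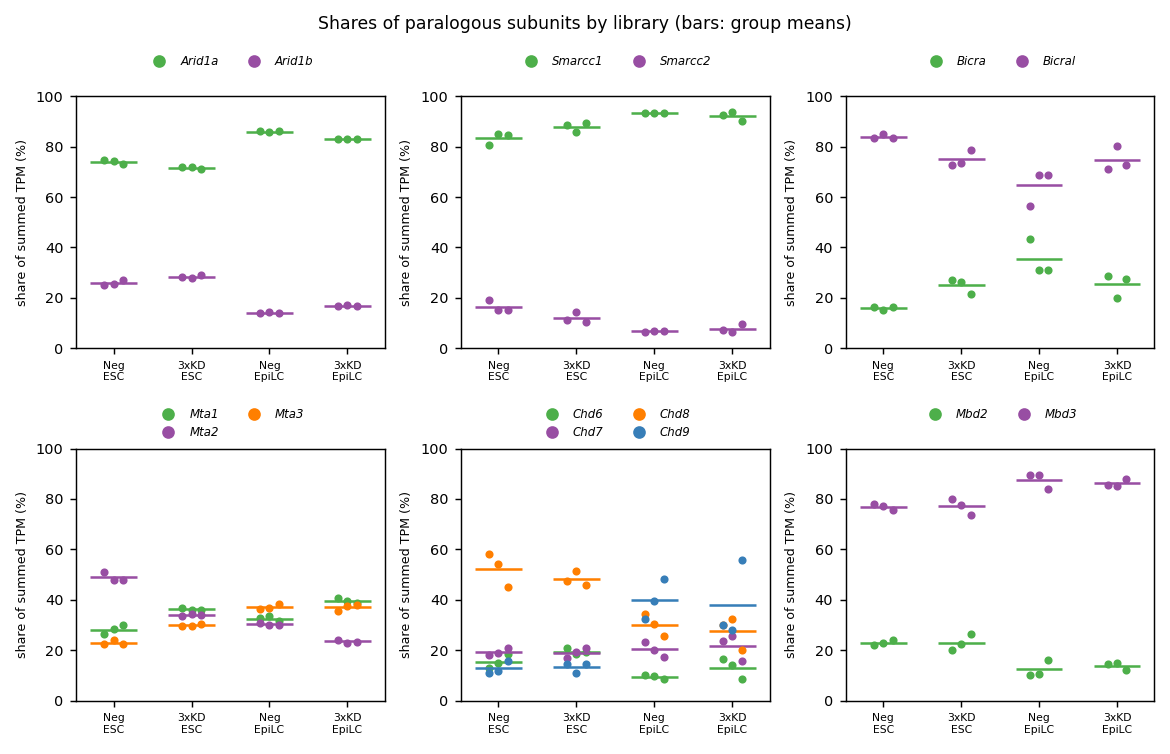
Each panel plots, on an axis from 0 to 100%, the share of a paralog in the summed TPM of its set, with 1 point per library and a line at the group mean. Arid1a and Smarcc1 hold most of their pairs in all groups, Mta2 drops from the top to the bottom of its trio between Neg ESCs and both EpiLC groups, and the points of the Chd6 to Chd9 set scatter most in EpiLCs.

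Shares of single transcripts were described without a test. A transcript was noted where the groups did not overlap and their mean shares of the gene's TPM differed by more than 10 percentage points. Of 471 member transcripts, 18 were noted between ESCs and EpiLCs in Neg cells and 11 in 3xKD cells, against 3.27% and 3.17% of all transcripts compared. Between 3xKD and Neg, 19 were noted in ESCs and 10 in EpiLCs, against 3.93% and 3.82%. With a limit of 20 points, 2, 2, 4 and 2 were noted in the same order, against 1.49%, 1.35%, 1.47% and 1.41%. The 471 member transcripts are not independent, and these counts were not tested against the background. The assignment of reads to transcripts is Salmon's estimate, and an estimate of 0 does not show that a transcript is absent.

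The largest shift between 3xKD and Neg ESCs was in Smarcd3. Smarcd3-201 held 0, 0 and 0 estimated counts in Neg ESCs and 119.9, 118 and 76.2 in 3xKD ESCs. Smarcd3-208 held 48.8, 44.3 and 76.9 in Neg ESCs and 0, 0 and 28.0 in 3xKD ESCs. Counts per library are not scaled for depth here, and each of these transcripts held at most 14.0 counts in any EpiLC library. The starts of these coding transcripts lie 22129 bases apart, at position 24829409 for Smarcd3-208 and 24807280 for Smarcd3-201 on chromosome 5 (GRCm39, GENCODE vM39), and the estimates place most Smarcd3 reads of 3xKD ESCs on the inner start. Stretches before each start are printed to show how they differ. For Smarcd3-208 it is chr5:24829410-24829609, minus strand, 9 CG, directly before the start. For Smarcd3-201 it is chr5:24807435-24807634, minus strand, 12 CG, 154 bases before the start, where the nearest 200 bases outside annotated exons begin. CG are in capitals, and neither holds any of the letter runs searched above.
Smarcd3-208: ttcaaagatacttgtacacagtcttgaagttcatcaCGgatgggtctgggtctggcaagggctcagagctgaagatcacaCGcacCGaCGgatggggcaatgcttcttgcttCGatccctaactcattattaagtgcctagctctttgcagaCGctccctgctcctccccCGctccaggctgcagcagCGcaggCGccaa
Smarcd3-201: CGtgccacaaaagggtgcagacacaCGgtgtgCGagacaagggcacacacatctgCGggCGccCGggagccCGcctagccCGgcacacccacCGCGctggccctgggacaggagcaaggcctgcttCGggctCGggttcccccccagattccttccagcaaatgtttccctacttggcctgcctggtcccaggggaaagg

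Brd9, the bromodomain subunit of non-canonical BAF (ENSMUSG00000057649, chromosome 13, 74085904 to 74109932 on the plus strand), was not called between 3xKD and Neg, at -0.44 (SE 0.06, adjusted p = 2.22e-05) in ESCs and -0.29 (SE 0.06, adjusted p = 0.00136) in EpiLCs, but its transcripts differed. The coding transcript Brd9-206 held 301, 306 and 415 estimated counts in Neg ESCs and 60.8, 60.8 and 85.2 in 3xKD ESCs. The retained-intron transcript Brd9-205 held 42.5, 62.5 and 56.0 and 149, 156 and 157. Thus the coding form was lower and the retained-intron form higher in every 3xKD ESC library. Protein-coding transcripts together held 81.6, 73.4 and 75.0% of the Brd9 estimated counts in Neg ESCs and 27.9, 26.2 and 21.9% in 3xKD ESCs. In EpiLCs the shares were 78.3, 74.4 and 76.6% in Neg and 40.4, 26.6 and 42.5% in 3xKD libraries. The groups did not overlap in either state, and this count was chosen after the transcript values were seen. Across genes, a coding share of counts differing by over 10 percentage points without overlap was found in 5.27% of 10220 genes in ESCs and in 4.63% of 10225 in EpiLCs, and in 2 and 1 of 47 members, the second in ESCs being Phf10 with 76.4, 75.3 and 75.0% in Neg and 66.2, 60.8 and 61.9% in 3xKD libraries. Retained-intron transcripts held 3.41% to 3.71% of all counts in Neg ESCs, 4.13% to 4.14% in 3xKD ESCs, 3.58% to 3.63% in Neg EpiLCs and 4.10% to 4.20% in 3xKD EpiLCs, while by TPM the Neg and 3xKD groups overlapped in both states. The part of this in the Brd9 values was not tested.

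Other members had smaller shifts. Mbd3-204, a coding transcript of Mbd3, held 54.0, 57.9 and 53.2% of the gene's TPM in Neg ESCs and 36.3, 30.8 and 41.5% in 3xKD ESCs. Gatad2a-202, also coding, held 59.6, 62.7 and 59.2% in Neg ESCs and 80.3, 73.1 and 85.6% in Neg EpiLCs. Groups did not overlap in these comparisons.

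**Figure D5:**
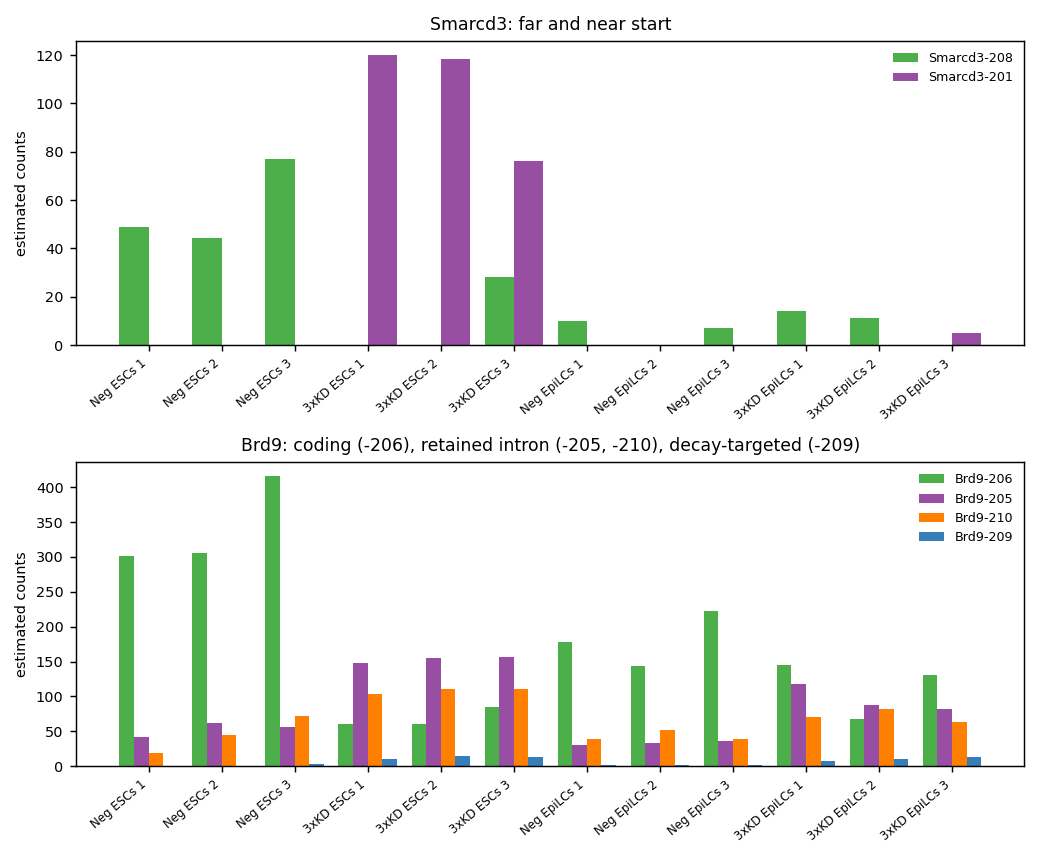
Estimated counts per library, not scaled for depth, are drawn as bars from 0 for 2 transcripts of Smarcd3 (top) and 4 of Brd9 (bottom). Smarcd3-201 is above 0 in all 3xKD ESC libraries and at 0 in all Neg ESC libraries, and Brd9-206 is the tallest Brd9 bar in all Neg libraries but in no 3xKD ESC library.

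A further 56 subunits and relatives, listed with the members but not among them, were all tested. Between ESCs and EpiLCs 11 rose in Neg cells and 8 in 3xKD cells, and none fell, against 9.78% and 9.42% of all genes called higher and 11% and 9.32% called lower. Bcl11a and Bcl11b, zinc-finger subunits of BAF known from blood and brain, had the largest rises. Bcl11a measured 0.443, 0.688 and 0.612 CPM in Neg ESCs, 0.676, 0.549 and 0.327 in 3xKD ESCs, 24.0, 23.0 and 22.6 in Neg EpiLCs and 4.16, 4.48 and 4.06 in 3xKD EpiLCs. Every EpiLC library lay above every ESC library, and 3xKD EpiLCs lay well below Neg EpiLCs. Bcl11a rose by 5.27 (SE 0.16, adjusted p = 7.92e-14) in Neg and 3.00 (SE 0.19, adjusted p = 1.16e-09) in 3xKD cells, and fell by 2.45 on the log2 scale in 3xKD against Neg EpiLCs (SE 0.12, adjusted p = 1.46e-10). Bcl11b rose by 3.08 (SE 0.31, adjusted p = 2.77e-07) and 1.096 (SE 0.28, adjusted p = 0.00415). The difference between the 3xKD effects in EpiLCs and ESCs was -2.27 (SE 0.31, adjusted p = 6.97e-05) for Bcl11a and -1.98 (SE 0.43, adjusted p = 0.00367) for Bcl11b. The CHD paralog Chd5 was higher in EpiLCs by 1.27 and 1.14 and in 3xKD cells by 0.93 (SE 0.13, adjusted p = 2.11e-05) in ESCs and 0.81 (SE 0.11, adjusted p = 1.94e-05) in EpiLCs. Ss18l1, a paralog of the BAF subunit Ss18, rose by 0.61 (SE 0.07, adjusted p = 2.49e-06) in 3xKD ESCs.

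Of 28 other subunits of the INO80, SRCAP and TIP60 complexes, 7 fell in 3xKD against Neg ESCs and 8 in EpiLCs and none rose. The shares of all genes called lower were 6.78% in ESCs and 5.35% in EpiLCs. Of the 28 subunits, 26 and 25 lay below 0, with medians of -0.33 and -0.32 in the same order. With no fold limit, 19 were lower and 1 higher in ESCs and 21 lower and 1 higher in EpiLCs, against 31.6% and 29.9% of all genes past that limit in either direction. Among the 15032 genes with at least 1 CPM, 3928 were lower and 3780 higher in ESCs, and 3887 and 3488 in EpiLCs. Ino80c, a core INO80 subunit, measured 34.0, 31.8 and 32.6 CPM in Neg ESCs, 14.7, 13.4 and 15.3 in 3xKD ESCs, 36.9, 32.8 and 36.9 in Neg EpiLCs and 20.3, 17.2 and 16.98 in 3xKD EpiLCs. The 3xKD libraries lay below the Neg libraries in each state without overlap. Ino80c fell by 1.18 in ESCs (SE 0.08, adjusted p = 4.69e-09) and by 0.97 in EpiLCs (SE 0.08, adjusted p = 3.42e-08) on the log2 scale. Epc2, an enhancer-of-polycomb subunit of TIP60, was at -0.76 and -0.82, Yy1, the DNA-binding subunit of INO80, at -0.67 and -0.62, and each of these was called. Both were chosen after their values were seen. Smarcad1, a remodeler acting behind replication forks, fell by 0.91 in ESCs (SE 0.04, adjusted p = 4.45e-11) and by 0.72 in EpiLCs (SE 0.04, adjusted p = 3.96e-10), on the log2 scale. Rad54l, a recombination ATPase, was the relative with a higher 3xKD effect in EpiLCs than in ESCs, by 0.42 (SE 0.07, adjusted p = 0.000824).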

How the data were processed

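RNA of 12 samples was depleted of ribosomal RNA and sequenced single-end with a directional kit, although the labels name polyA RNA. Per the study's methods and the submitters' processing notes, the authors trimmed reads (Trim Galore 0.6.7), aligned them (STAR 2.7.9a) and quantified transcripts with Salmon 1.10.1 on GRCm39. The authors deposited estimated counts and TPM per transcript. Reads shared by paralogs, pseudogenes or overlapping transcripts are split by Salmon, so such values are less certain. Groups were taken from sample titles, as the cell-type field of the labels conflicts with them.

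For each gene the estimated counts of its transcripts were added and rounded. The 25446 genes reaching 10 counts over all libraries were fitted in R 4.3.3 with edgeR 4.0.16 (TMM, quasi-likelihood test, all 4 groups, two-sided) and p-values adjusted by Benjamini-Hochberg over all of them. The script was tested on simulated data, where it called between 69% and 78% of 200 changed genes in each of the 5 comparisons, and between 78.7% and 91.3% of those changed by 2-fold or more. TPM served for levels and shares. The alternatives were DESeq2 1.42.0, other scalings, filters, limits and fits, a replicate block, and leaving out each library. Members called in a comparison were given in full, and of the other subunits the called genes with the 2 largest changes in each direction. The members and lists were chosen with earlier results of these data known. Coding shares and sequence windows were chosen after values were seen. Depths of 11221023 to 19652197 counts limit low genes, and intervals cover the spread of 3 libraries.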

Additional observations from a re-analysis of the deposited data

Results flagged for a closer look

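For 20 members the 3xKD effect differed between EpiLCs and ESCs by a test of the difference itself, an edgeR quasi-likelihood interaction at an adjusted p under 0.01, with 3 libraries per group. Values below are the log2 effect in EpiLCs minus that in ESCs. In BAF they were -1.02 for Dpf1, -0.32 for Smarca4, -0.31 for Arid1a, -0.28 for Smarcd1, -0.25 for Dpf2 and 1.04 for Bicral. In ISWI they were -1.50 for Smarca1, -0.26 for Bptf and 0.35 for Baz2b. Among CHD and NuRD genes they were -0.68 for Chd9, -0.60 for Chd7, -0.50 for Mta3, -0.39 for Chd3, -0.34 for Chd6, -0.33 for Chd1, -0.31 for Mbd3, -0.25 for Chd4 and -0.25 for Chd8. For Ino80 the value was 0.27 and for Hells -0.25. These calls were not equally stable over 22 alternative settings. The call was kept in 11 for Chd3, 13 for Dpf2, 15 for Bptf and 16 for Chd4 and Chd8. It was kept in all 22 for Bicral, Mta3 and Smarca4, and in 19 to 21 for the rest.

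For 5 members the 3xKD libraries lay on opposite sides of the Neg libraries in the 2 states without overlap. Lack of overlap within a single state was common, at 49% of all genes tested for ESCs and 47.2% for EpiLCs. The share of all genes with such opposite sides was not counted, so these 5 cannot be called more than among other genes. Bicral was at -0.83 in ESCs and 0.22 in EpiLCs, Dpf1 at 0.66 and -0.36, Smarca1 at 1.26 and -0.25, Chd7 at 0.16 and -0.44 and Chd6 at 0.20 and -0.15. Once counts were corrected for transcript length, Bicral alone of these 5 stayed called in the difference between states. The ESC value of Dpf1 then fell to 0.14. Arid1a and Bptf were lower in 3xKD cells in both states, Arid1a at -0.34 and -0.65 and Bptf at -0.30 and -0.56. Summed CPM of 2-cell-like, formative and neuroectoderm markers also differed between the lines mainly in EpiLCs. That of primitive endoderm markers was higher in 3xKD than in Neg ESCs and lower in 3xKD than in Neg EpiLCs without overlap. Naive markers went the other way, lower in 3xKD than in Neg ESCs and higher in 3xKD than in Neg EpiLCs, also without overlap. The part of any of these markers in the differences between states was not tested.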

How the results depend on the processing

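Offsets for transcript length, which correct counts for the transcripts Salmon assigns them to, moved the difference between states most. Under them 7 members were called from ESCs to EpiLCs in 3xKD cells (10 before), Smarca1, Arid2 and Baz2b being lost, 3 members were called between 3xKD and Neg EpiLCs (1 before) and 4 in the difference between states (20 before), and over all genes the latter calls fell to 337 higher and 394 lower. The spread of transcript assignment enters these fits, and the cause was not tested. Scaling by library size alone gave 11 in the difference between states, and fitting only the groups compared gave 2 in EpiLCs, with Chd9 added at -0.60. At an adjusted p under 0.05 with no fold limit, 42, 43, 35 and 37 members were past the test from ESCs to EpiLCs in Neg and in 3xKD cells and between 3xKD and Neg in ESCs and in EpiLCs. That rule gave, among the 25446 genes tested, 5585 higher and 5647 lower, 5235 and 5604, 5108 and 5033, and 4835 and 4859 in the same order. With a fold limit of 1 on the log2 scale 8, 4, 1 and 0 members were called. Leaving out 1 library gave 15 to 19, 9 to 11, 4 to 5 and 1 to 3 members in the same order, and 15 to 23 in the difference between states. DESeq2 called 18, 9, 5, 1 and 20. The labels number replicates within each group. Same-numbered libraries did not deviate together, with correlations of -0.135 to 0.0999 over 18 pairs, so the numbers were not taken as pairs. With a replicate block 16, 10, 5, 1 and 18 members were called. No member value past the limits changed direction under any alternative run.

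Paralog shares without overlap between 3xKD and Neg numbered 22 in ESCs and 16 in EpiLCs from estimated counts (11 and 8 from TPM). Leaving out 1 library gave 11 to 18 in ESCs, the highest without 3xKD ESCs replicate 3, and 8 to 14 in EpiLCs, with 13 without Neg EpiLCs replicate 3 and 14 without 3xKD EpiLCs replicate 3. At 20 percentage points 2, 2, 4 and 2 member transcripts were noted in place of 18, 11, 19 and 10. Smarca1, Smarcd3, Dpf1, Dpf3 and Actl6b are low genes, and their values are limited by depth.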

Other observations

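The other marker lists gave summed CPM that describe the same libraries. Pou5f1 and Sox2 together lay at 971 to 991 in Neg ESCs, 909 to 942 in 3xKD ESCs, 852 to 927 in Neg EpiLCs and 725 to 757 in 3xKD EpiLCs. Primitive endoderm markers lay at 21.5 to 24.1, 28.1 to 31.0, 23.8 to 28.6 and 18.2 to 19.8 in the same order of groups, and mesoderm markers at 24.8 to 26.9, 26.2 to 30.5, 19.9 to 21.1 and 20.9 to 22.9. Neuroectoderm markers lay at 117 to 128, 107 to 110.8, 133 to 139 and 70.3 to 72.5 in the same order of groups.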
